A study of Mus musculus with 6 samples.

Results

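Solute carriers are the membrane proteins, named Slc with a family number, that move sugars, amino acids, metals, nucleotides and ions across the cell surface and the membranes of organelles. The Slc genes described here are all genes whose single annotated symbol on the array begins with Slc and a digit, and there were 189 of them among 10698 genes, represented by 257 probes. They fall into 46 numbered families. Of the 189, 152 had at least 1 probe with a measured ratio on all 6 arrays and were tested, 33 had ratios on some arrays, and 4 (Slc12a3, Slc24a3, Slc25a27 and Slc5a4a) were listed at 0 on every array. The name rule also takes in 4 genes that are not carriers: the binding proteins Slc4a1ap and Slc9a3r2, the pseudogene Slc39a1-ps and the opposite-strand gene Slc6a19os.

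The RNA came from RAW 264.7, a mouse macrophage cell line, either left untreated for 1 h or given lipopolysaccharide (LPS) at 100 ng/ml together with LPS-binding protein (LBP) at 100 pM for 1 h. LPS is the outer membrane glycolipid of Gram-negative bacteria and LBP is the serum protein that delivers it to its receptor. Both RNAs were hybridised on each of 6 two-colour arrays, 3 with the treated RNA in the red dye Cy5 and 3 with it in the green dye Cy3, numbered as sets 1 to 3 in each orientation. They are called the Cy5 arrays and the Cy3 arrays after the dye of the treated RNA. Parts of the labels write the line's name as RAW 264.4. Values are log2 ratios of treated over untreated RNA, so that 1 is a doubling and a negative value is a lower level after treatment. The error is the SD over the averages of the 2 arrays of each set (n = 3), and a gene passed at a limma adjusted p under 0.05 over all 8331 genes tested. Whether the sets came from separate cultures is not said in the labels. The p-values therefore reflect only the scatter among these samples, which may be technical. Set numbers did not pair the arrays. Where arrays of a set vary in opposite directions, the SD over set averages understates the scatter of the arrays. Lack of pairing does not by itself make p-values too small, and whether they are too small was not tested. With arrays as separate samples, 9.1% of all genes passed as higher and 8.17% as lower, against 6.96% and 6.21% on set averages. The sign of every value assumes ratios of Cy5 over Cy3, which is likely from the labels, where Cy5 marks the test channel, and all signs would turn otherwise.

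Between 8.99% and 23.9% of the values on an array were exactly 0 and were treated as missing. Array medians of the measured ratios, taken as deposited before the sign of the Cy3 arrays was turned, lay between 0.0043 and 0.0159. A ratio carries no level, so neither the abundance of a transcript nor the macrophage label could be read from marker levels. Of the macrophage marker symbols, 8 of 11 had ratios on all arrays, and Adgre1 alone passed, at 0.55 ± 0.11 (12.5%, against 13.2% of all genes). Of the lymphocyte markers, 5 of 7 were tested and Cd4 (0.47 ± 0.21) and Cd79a (0.20 ± 0.064) passed, a share of 40%. Of 6 fibroblast and epithelial markers 1 was tested and it did not pass. Their part in the results on the Slc genes was not tested.

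In macrophages, carriers set what the cell can feed on and what it can deny to a microbe. Glucose enters through Slc2 carriers, cystine for glutathione and arginine for nitric oxide enter through Slc7 carriers, iron is drawn from phagosomes by Slc11 carriers and released from the cell by Slc40a1, and Slc25 carriers connect the mitochondrial matrix with the cytosol.

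The comparison asked which of these transcripts differed after 1 h of LPS and LBP. Of the 152 tested, 12 rose, 9 fell and 131 did not pass. Slc20a1 (0.76), Slc31a2 (0.60), Slc2a1 (0.54) and Slc7a11 (0.49) rose most, and Slc29a2 (-0.44), Slc40a1 (-0.43) and Slc37a4 (-0.34) fell most. The members that passed made up 13.8% of those tested, against 13.2% of all genes, with 6.96% of all genes higher and 6.21% lower, so the share of Slc genes that passed was near the background. No member reached a mean of 1 in size, against 1.06% of all genes, and 2 of the 21 that passed reached 1.5-fold. The tested members had a median of 0.0070, beside -0.0092 for all genes, and 88 members had a mean under 0.1 in size. With arrays as separate samples and the dye as a term, 18 members rose, against 9.1% of all genes, and 8 fell, against 8.17%. In that fit 9 members passed that otherwise did not: Slc10a7, Slc30a7, Slc30a9, Slc35a2, Slc25a23, Slc25a25, Slc43a3 and Slc7a7, all higher, and Slc30a5, lower (adjusted p from 0.0226 to 0.0493). Without set 1 there were 7 that rose and 4 that fell, without set 2 there were 8 and 3, and without set 3 there were 8 and 5. These counts were not set against the share of all genes called in the same fits. A drop among members therefore cannot be told from a drop over all genes.

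**Figure D1:**
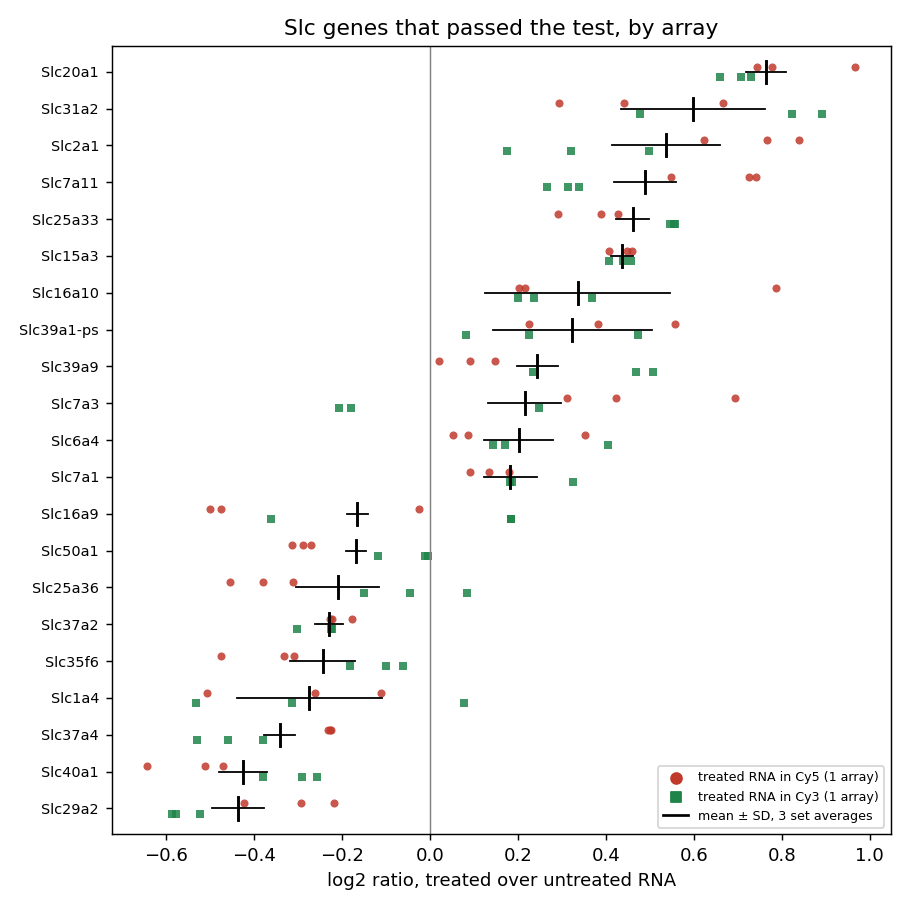
Log2 ratios of treated over untreated RNA (horizontal axis) for the 21 Slc genes that passed. Circles are the 3 arrays with treated RNA in Cy5, squares the 3 with treated RNA in Cy3, and the black marks the mean ± SD over the 3 set averages. Slc20a1 sits between 0.66 and 0.97 on every array, and for Slc7a3, Slc16a9, Slc25a36 and Slc1a4 at least 1 array lies on the other side of 0.

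Among the 21, 17 had the same sign on all 6 arrays, and the exceptions were Slc7a3, Slc16a9, Slc25a36 and Slc1a4. These genes were chosen for passing on the same arrays, so that count is a description. Of all 152 tested members 29 had one sign on all 6 arrays, and of all genes 19.1%, which is the same share. The genes that kept their call under each of the alternatives tried were 6 in number: Slc20a1, Slc15a3, Slc25a33, Slc29a2, Slc40a1 and Slc37a4. Of the 21, 20 rest on 1 probe that was complete on all arrays, and the exception, Slc15a3, has a pair.

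The sugar group takes in the Slc2, Slc5, Slc37 and Slc50 genes, carriers of hexoses, of sugar phosphates and of other sodium-coupled solutes. Of 11 tested genes 1 rose (9.09%, against 6.96% of all genes) and 3 fell (27.3%, against 6.21%), with a median of -0.13. The substrate groups are small, so such shares are coarse. Genes were put in groups by family number, so a member can carry a substrate other than its group's name. Slc2a1, which encodes the widely expressed glucose transporter GLUT1, gave 0.62, 0.84 and 0.77 on the Cy5 arrays (in the order of sets 1, 2 and 3, as throughout) and 0.18, 0.32 and 0.50 on the Cy3 arrays. All 6 values were above 0, and the 2 orientations did not overlap. Slc2a1 rose by 0.54 ± 0.12, or 1.45-fold (limma, adjusted p = 0.00214). On the Cy3 arrays alone its mean was 0.33, short of the threshold (adjusted p = 0.075). None of the other 4 Slc2 genes tested passed. The high-affinity glucose transporter Slc2a3 averaged 0.16 ± 0.38, with probes at 0.14 and 0.18, and the intracellular Slc2a8 averaged -0.14 ± 0.045. Slc2a3 ranged from -0.37 to 0.72 over the arrays and was highest in set 3 in both orientations.

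The genes that fell in this group act inside the cell or in sugar release. Slc37a4, the carrier that brings glucose 6-phosphate into the endoplasmic reticulum, gave -0.23, -0.22 and -0.23 on the Cy5 arrays and -0.38, -0.53 and -0.46 on the Cy3 arrays. Every array was below 0, the orientations did not overlap, and Slc37a4 fell by 0.34 ± 0.035 (limma, adjusted p = 0.00352). Its relative Slc37a2, a phosphate-linked glucose 6-phosphate exchanger, gave -0.22, -0.23 and -0.18 in Cy5 and -0.22, -0.30 and -0.22 in Cy3. The orientations of Slc37a2 overlapped, and it fell by 0.23 ± 0.033 (adjusted p = 0.0158), without a call when set 1 (-0.23) or set 2 (-0.21) was left out. The remaining Slc37 gene, Slc37a3, averaged -0.13 and did not pass. Slc50a1, the SWEET-type sugar transporter, gave -0.29, -0.31 and -0.27 in Cy5 and -0.01, -0.0039 and -0.12 in Cy3, so its Cy5 arrays lay lower than its Cy3 arrays without overlap. It averaged -0.17 ± 0.023 (adjusted p = 0.0447), and it did not pass with any 1 of the sets left out (-0.18, -0.17 and -0.15), nor on the Cy3 arrays alone (-0.04).

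**Figure D2:**
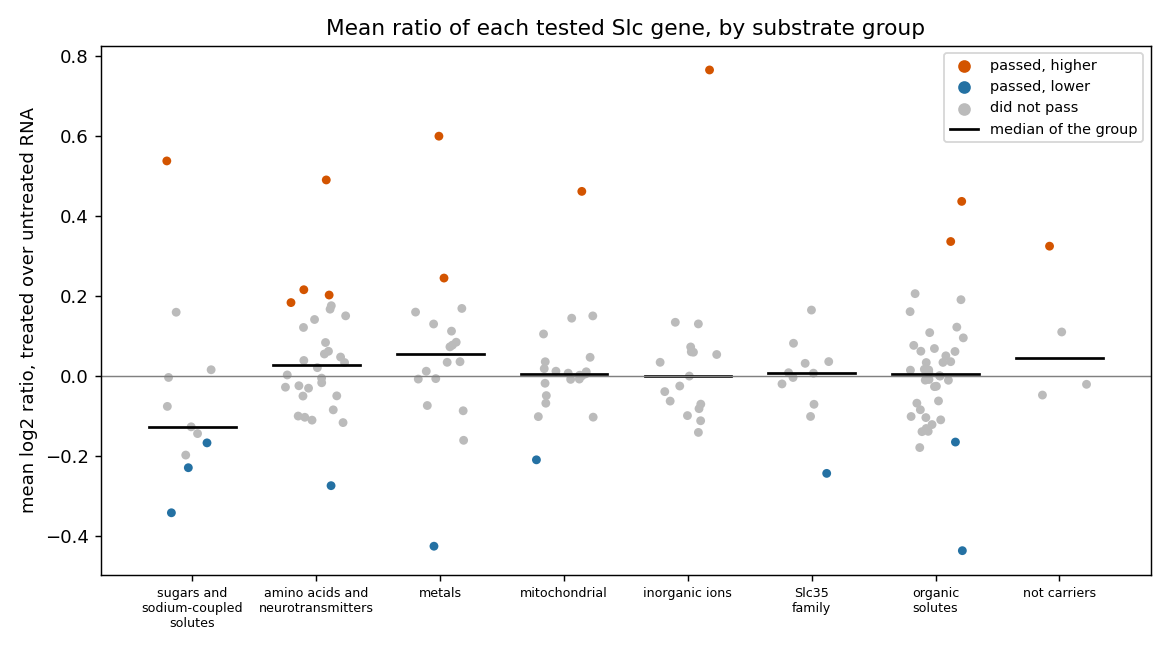
Mean log2 ratio of treated over untreated RNA (vertical axis) for each of the 152 tested Slc genes, grouped by substrate. Points are genes, coloured by whether they passed and in which direction, and the black line is the group's median. The sugar group has the lowest median (-0.13), and Slc20a1 in the inorganic ion group is the highest point (0.76).

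Among amino acid and neurotransmitter carriers, 4 of 30 tested genes rose (13.3%, against 6.96% of all genes) and 1 fell (3.33%, against 6.21%). The group's median was 0.027. By family number the group takes in Slc43a3, a carrier of purine bases, and leaves out Slc16a10, a carrier of aromatic amino acids. Slc7a11 encodes the cystine and glutamate exchanger that supplies cystine for glutathione synthesis. It gave 0.55, 0.74 and 0.73 on the Cy5 arrays and 0.27, 0.31 and 0.34 on the Cy3 arrays. The orientations did not overlap, all values were above 0, and Slc7a11 rose by 0.49 ± 0.071, or 1.40-fold (limma, adjusted p = 0.00136). A second probe of Slc7a11 had ratios only on the 3 Cy5 arrays, where it read -1.08, -0.69 and -1.10, the opposite sign. Without a Cy3 array, a treatment difference on that second probe cannot be told from a dye effect. With zeros kept as ratios, which averages in the second probe, Slc7a11 stood at 0.01 and did not pass (adjusted p = 0.967). The heavy chain that Slc7a11 needs at the cell surface, Slc3a2, averaged 0.12 ± 0.063 and did not pass. Its probes read 0.16 and 0.085, and its mean was 0.28 in Cy5, which passed alone (adjusted p = 0.0338), and -0.04 in Cy3.

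The cationic amino acid carriers of the Slc7 family, which take up arginine and lysine, gave smaller values. Slc7a1 gave 0.14, 0.09 and 0.18 in Cy5 and 0.19, 0.18 and 0.32 in Cy3, all above 0, with a mean of 0.18 ± 0.061 (adjusted p = 0.0456). The call of Slc7a1 was lost with any 1 set left out (0.19, 0.21 and 0.15). Its second probe read -1.69, -1.43 and -1.84 on the Cy5 arrays and 1.66 on the only Cy3 array that measured it, so it followed the dye, and the gene averaged -0.18 with zeros kept as ratios. Slc7a3 gave 0.42, 0.69 and 0.31 in Cy5 but -0.18, -0.21 and 0.25 in Cy3. It averaged 0.22 ± 0.083 (adjusted p = 0.0352). The SD over its 6 arrays was 0.35, which includes the difference between the orientations that a set average cancels. Slc7a3 did not pass without set 1 (0.26), set 2 (0.20) or set 3 (0.18) or with arrays as separate samples (adjusted p = 0.11). Slc7a2, the arginine carrier known from activated macrophages, averaged 0.05 ± 0.14 and did not pass, with values from -0.23 to 0.66. Of the light chains of amino acid exchangers, Slc7a5 averaged 0.18 ± 0.25, Slc7a7 0.17 ± 0.11 and Slc7a8 -0.02 ± 0.13, and none passed. Slc7a5 was lowest in set 2 in both orientations (0.21 and -0.38), and it passed without set 2, at 0.31 (adjusted p = 0.0334). In the Slc7 family as a whole 3 of 10 tested genes rose (30%, against 6.96% of all genes). In it 0 fell, against 6.21%, and the median was 0.11.

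**Figure D3:**
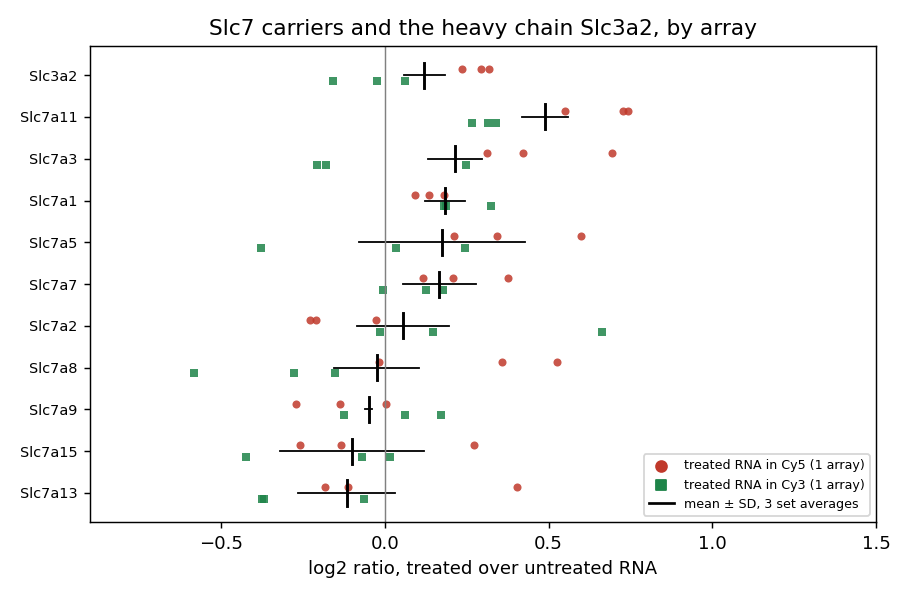
Log2 ratios of treated over untreated RNA (horizontal axis) for the 10 tested Slc7 genes and the heavy chain gene Slc3a2. Circles are arrays with treated RNA in Cy5, squares arrays with treated RNA in Cy3, and the black marks the mean ± SD over the 3 set averages. Slc7a11 has all 6 arrays between 0.27 and 0.74, and the Cy5 and Cy3 arrays of Slc3a2 lie apart.

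Outside the Slc7 family, Slc1a4, a carrier of alanine, serine and cysteine, gave -0.26, -0.11 and -0.51 in Cy5 and 0.08, -0.53 and -0.31 in Cy3. It averaged -0.27 ± 0.16 (adjusted p = 0.0482), with 5 of 6 arrays below 0. The call of Slc1a4 was lost without set 2 (-0.25), without set 3 (-0.21), with arrays as separate samples (adjusted p = 0.0751) or with incomplete probes included (-0.18). A further probe of Slc1a4, measured on 5 arrays, averaged 0.065. The glutamine carrier Slc1a5 averaged 0.03 ± 0.086. Slc6a4, the serotonin transporter, gave 0.05, 0.35 and 0.09 in Cy5 and 0.17, 0.14 and 0.40 in Cy3 and averaged 0.20 ± 0.078 (adjusted p = 0.0408), and it did not pass without set 1 (0.25), set 2 (0.18) or set 3 (0.18), nor with arrays as separate samples (adjusted p = 0.050025). Slc43a3, a carrier of purine bases, averaged 0.15 ± 0.023 and did not pass. Tested singly, 1 of its probes passed (0.20, limma, adjusted p = 0.0334) and the other did not (0.10, adjusted p = 0.23). The glutamate transporter gene Slc1a2, named after its values were seen, averaged -0.11 ± 0.043 over 3 probes and did not pass. Its probes disagreed: 1 read between -0.53 and -0.31 on the arrays and passed singly (-0.42, adjusted p = 0.00182), while the others averaged 0.024 and 0.065.

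The members Slc7a11, Slc50a1 and Slc1a4, which passed, hold the amino acid response element letters TGATGNAA in the RefSeq promoter table of GRCm38.p6 (250 bases before to 50 after an annotated start). Their promoters are printed because they hold these letters. Slc7a11 rose and the others fell, and the calls of Slc7a11, Slc50a1 and Slc1a4 were lost in 1, 8 and 9 of 11 alternatives. Whether the letters bear on the direction was not tested. The search covered both strands, and the capitals mark each match. The letters occur in 3.97% of all 32851 promoters, or in those of 1219 of 27025 genes. Promoters were found for 17 of the 21 genes that passed, 9 that rose and 8 that fell. Slc15a3, Slc40a1, Slc7a3 and Slc39a1-ps had no entry. Slc7a11 has a pair of matches, at bases -66 and -47 from the start, on opposite strands, while the others have 1 each. A match is a description of the sequence and not evidence of binding.
Slc7a11, chr3:50443564-50443863, minus strand: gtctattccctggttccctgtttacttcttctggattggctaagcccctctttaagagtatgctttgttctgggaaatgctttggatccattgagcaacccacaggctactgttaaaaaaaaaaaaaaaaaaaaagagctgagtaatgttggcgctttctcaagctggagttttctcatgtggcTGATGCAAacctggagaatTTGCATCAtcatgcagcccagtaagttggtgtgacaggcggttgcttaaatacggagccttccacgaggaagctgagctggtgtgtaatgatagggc
Slc50a1, chr3:89270521-89270820, minus strand: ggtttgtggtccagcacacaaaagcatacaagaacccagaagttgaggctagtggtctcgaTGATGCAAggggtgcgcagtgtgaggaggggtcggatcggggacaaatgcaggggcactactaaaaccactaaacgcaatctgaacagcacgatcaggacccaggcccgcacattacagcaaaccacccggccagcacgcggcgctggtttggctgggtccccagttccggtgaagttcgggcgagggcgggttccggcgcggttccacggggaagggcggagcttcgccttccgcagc
Slc1a4, chr11:20332664-20332963, minus strand: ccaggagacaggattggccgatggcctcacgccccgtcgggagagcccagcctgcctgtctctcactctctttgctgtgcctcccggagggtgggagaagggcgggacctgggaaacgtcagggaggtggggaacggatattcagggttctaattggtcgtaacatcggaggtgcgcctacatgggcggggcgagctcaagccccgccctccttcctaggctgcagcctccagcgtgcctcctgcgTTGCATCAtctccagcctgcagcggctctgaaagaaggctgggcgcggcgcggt

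Genes of cystine, glutathione, arginine and amino acid response outside the Slc families were set beside Slc7a11. Of 20, 18 were tested, with a median of 0.062. Of those tested 7 rose (38.9%, against 6.96% of all genes) and 1 fell (5.56%, against 6.21%). The list was written with earlier results of these data known, so its share is a description. Ddit3, a stress transcription factor, rose by 1.01 ± 0.056, and the antioxidant enzymes Srxn1 (0.57 ± 0.082) and Txnrd1 (0.56 ± 0.25), the nutrient stress gene Sesn2 (0.57 ± 0.26), the transcription factors Atf3 (0.30 ± 0.17) and Atf4 (0.21 ± 0.060) and the polyamine enzyme Odc1 (0.25 ± 0.076) rose. Keap1, which restrains the antioxidant factor NRF2, fell by 0.30 ± 0.080. Atf3, Atf4, Odc1 and Keap1 did not pass without set 1 (0.23, 0.21, 0.28 and -0.26), nor Atf3, Atf4 and Odc1 without set 2 (0.28, 0.18 and 0.21), nor Odc1 without set 3 (0.25).

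Among metal carriers, a copper carrier gene rose and the iron exporter gene fell. Of 18 tested genes 2 rose (11.1%, against 6.96% of all genes) and 1 fell (5.56%, against 6.21%), with a median of 0.054. Slc31a2, a relative of the copper importer that sits on endosomes and lysosomes, gave 0.67, 0.29 and 0.44 in Cy5 and 0.89, 0.82 and 0.48 in Cy3. Every array was above 0 and the orientations overlapped. Slc31a2 rose by 0.60 ± 0.16, or 1.51-fold (limma, adjusted p = 0.00284), and it did not pass with zeros kept as ratios (adjusted p = 0.0546). Slc40a1, which encodes ferroportin, the cell's iron exporter, gave -0.47, -0.64 and -0.51 in Cy5 and -0.26, -0.29 and -0.38 in Cy3. All 6 values were below 0 without overlap of the orientations, and Slc40a1 fell by 0.43 ± 0.055, or 1.34-fold (limma, adjusted p = 0.00184). The iron and manganese carriers of phagosomes and endosomes, Slc11a1 and Slc11a2, averaged 0.07 ± 0.088 and 0.11 ± 0.045 and did not pass. Slc11a1 had 1 array below 0, and Slc11a2 averaged 0.22 in Cy5 and 0.01 in Cy3.

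Among zinc carriers of the Slc30 and Slc39 families, 1 gene passed. Slc39a9, a zinc importer of the secretory pathway and cell surface, gave 0.09, 0.02 and 0.15 in Cy5 and 0.47, 0.51 and 0.23 in Cy3, with no overlap of the orientations. It rose by 0.24 ± 0.047 (adjusted p = 0.0143). The call was lost without set 1 (0.23) and on the Cy5 arrays alone (0.086). Slc39a7, the importer that releases zinc from the endoplasmic reticulum, averaged 0.01 ± 0.094. None of the 7 tested Slc30 exporters passed, with means from -0.16 to 0.17. Slc30a5 averaged -0.16 ± 0.041 (adjusted p = 0.0554), Slc30a6 0.16 ± 0.10 and Slc30a7 0.17 ± 0.047 (adjusted p = 0.051), and Slc30a1, known as a target of the zinc sensor Mtf1, averaged 0.04 ± 0.11. Slc30a1 was below 0 on all Cy5 arrays and above 0 on all Cy3 arrays. The pseudogene Slc39a1-ps gave 0.23, 0.38 and 0.56 in Cy5 and 0.08, 0.22 and 0.47 in Cy3 and averaged 0.32 ± 0.18 (adjusted p = 0.0351). Its call was lost without set 2 (0.33) and without set 3 (0.23). How far its probe also reads the parent gene Slc39a1 was not tested.

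**Figure D4:**
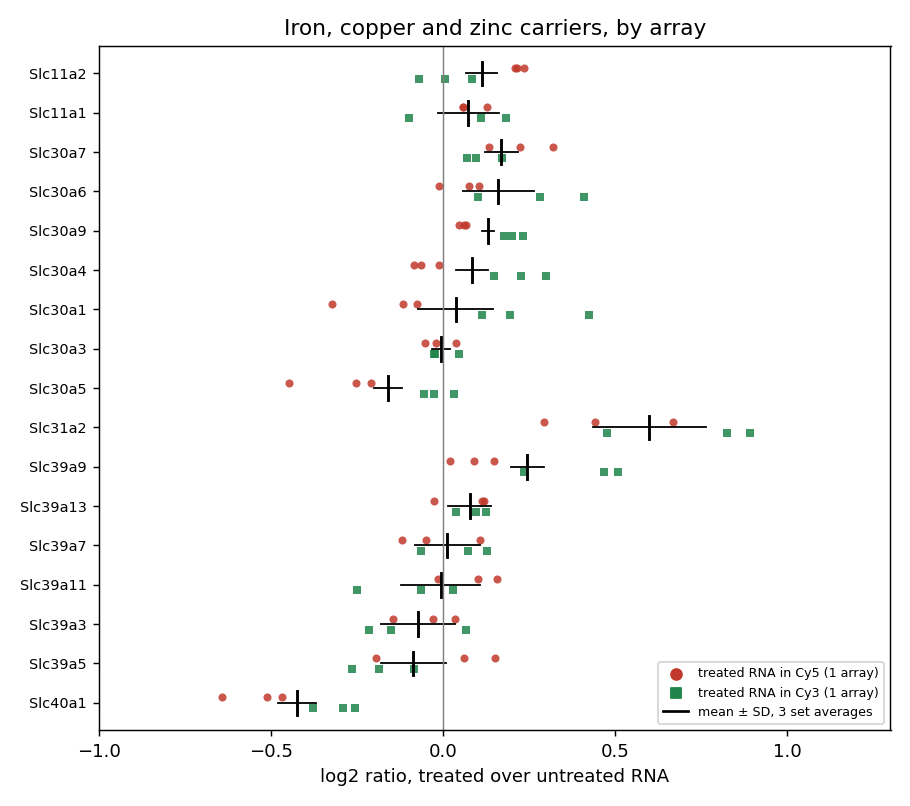
Log2 ratios of treated over untreated RNA (horizontal axis) for the tested iron (Slc11, Slc40), copper (Slc31) and zinc (Slc30, Slc39) carrier genes. Circles are arrays with treated RNA in Cy5, squares arrays with treated RNA in Cy3, and the black marks the mean ± SD over the 3 set averages. Slc31a2 lies above 0 and Slc40a1 below 0 on all 6 arrays, while Slc30a1 and Slc30a4 change side with the dye.

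Of 21 metal handling genes outside the Slc families, likewise listed with earlier results known, 11 were tested, with a median of 0.062. Of these 0 fell, against 6.21% of all genes, and 3 rose (27.3%, against 6.96%). Those that rose were Mtf1, the zinc-sensing transcription factor, at 0.72 ± 0.44, the heme-degrading enzyme gene Hmox1 at 0.34 ± 0.19, and Tfrc, the transferrin receptor gene, at 0.30 ± 0.072. Mtf1 was above 0 on every array, from 0.26 to 1.28, and highest in set 3 in both orientations. None of these 3 passed without set 1 (0.77, 0.32 and 0.33), and Hmox1 did not without set 2 (0.26). Pcbp1, an iron chaperone gene, averaged 0.11 ± 0.034 and did not pass.

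Of 21 tested Slc25 genes 1 rose and 1 fell (4.76% each, against 6.96% and 6.21% of all genes), with a median of 0.0054. These 2, Slc25a33 and Slc25a36, encode carriers of pyrimidine nucleotides into mitochondria. Slc25a33 gave 0.43, 0.29 and 0.39 in Cy5 and 0.55, 0.55 and 0.56 in Cy3. All arrays were above 0 without overlap of the orientations, and Slc25a33 rose by 0.46 ± 0.038, or 1.38-fold (limma, adjusted p = 0.00116). Slc25a36 gave -0.31, -0.45 and -0.38 in Cy5 but 0.08, -0.15 and -0.04 in Cy3. It averaged -0.21 ± 0.094 (adjusted p = 0.0448) and lost its call when set 1 (-0.26), set 2 (-0.16) or set 3 (-0.21) was removed, and on the Cy3 arrays alone (-0.037). The ADP and ATP exchangers Slc25a4 (-0.02 ± 0.050) and Slc25a5 (0.01 ± 0.15) did not pass, nor did the calcium-regulated carriers Slc25a23 (0.15 ± 0.073) and Slc25a25 (0.14 ± 0.039) or the carnitine carrier Slc25a20 (0.10 ± 0.16). The phosphate carrier Slc25a3 had ratios on 3 arrays only, with a mean of 0.17.

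Among carriers of inorganic ions, 1 of 17 tested genes rose (5.88%, against 6.96% of all genes) and 0 fell (against 6.21%). The group's median was -0.00026. The gene that rose, Slc20a1, encodes the sodium-coupled phosphate importer PiT-1. It gave 0.74, 0.97 and 0.78 in Cy5 and 0.71, 0.66 and 0.73 in Cy3, the highest mean of any member. The orientations did not overlap, at 0.83 and 0.70, and Slc20a1 rose by 0.76 ± 0.045, or 1.70-fold (limma, adjusted p = 0.000146). Its sister importer Slc20a2 averaged 0.05 and did not pass. The members next in size that did not pass were the calcium exchanger Slc8a3 (-0.14 ± 0.19), the potassium and chloride carrier Slc12a4 (0.13 ± 0.12) and the proton exchanger Slc9a2 (0.13 ± 0.14).

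Carriers of organic solutes had 2 of 40 tested genes that rose and 2 that fell, with a median of 0.0046. Each share was 5%, against 6.96% and 6.21% of all genes. Slc15a3, a carrier of histidine and small peptides out of the lysosome, gave 0.41, 0.46 and 0.45 in Cy5 and 0.41, 0.44 and 0.46 in Cy3. The arrays differed by little and the orientations overlapped. Slc15a3 rose by 0.44 ± 0.025, or 1.35-fold (limma, adjusted p = 0.00131), and its probes read 0.42 and 0.45 and each passed. Slc16a10, a carrier of aromatic amino acids, gave 0.20, 0.79 and 0.22 in Cy5 and 0.20, 0.37 and 0.24 in Cy3, highest in set 2 in both orientations. It averaged 0.34 ± 0.21 (adjusted p = 0.0447), or 0.21 without set 2, and did not pass with any 1 set left out (0.40 without set 1 and 0.39 without set 3). The lactate carriers Slc16a1 (0.00078 ± 0.13) and Slc16a3 (0.12 ± 0.33) did not pass, and Slc16a3 was highest in set 3 in both orientations (0.43 and 0.57).

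Slc29a2, an equilibrative nucleoside transporter, gave -0.29, -0.22 and -0.42 in Cy5 and -0.52, -0.58 and -0.59 in Cy3. All values were below 0 without overlap of the orientations, and Slc29a2 fell by 0.44 ± 0.059, or 1.35-fold (limma, adjusted p = 0.00177). The lysosomal Slc29a3 averaged -0.18 ± 0.088 and the plasma membrane Slc29a1 -0.07, and neither passed. Slc16a9, a monocarboxylate family member, gave -0.47, -0.50 and -0.02 in Cy5 but 0.18, 0.19 and -0.36 in Cy3. Its set averages lay close together (-0.16 ± 0.024, adjusted p = 0.0467), while the SD over its 6 arrays, difference between the orientations included, was 0.32. Slc16a9 did not pass without set 1 (-0.17), set 2 (-0.17) or set 3 (-0.15), and with arrays as separate samples its adjusted p was 0.31. A further probe of Slc16a9, measured on 3 arrays, read 0.30 and 0.31 in Cy5 (sets 1 and 3) and -0.20 in Cy3 (set 3). The next in size, Slc27a1, a fatty acid importer (0.21 ± 0.18), and Slc10a7 (0.19 ± 0.086, adjusted p = 0.0534) did not pass. Slc10a7 was above 0 on all 6 arrays and passed with arrays as separate samples (adjusted p = 0.0226).

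Of 11 tested genes of the Slc35 family, which is best known for nucleotide sugar carriers, 0 rose, against 6.96% of all genes. In the family 1 fell (9.09%, against 6.21%), and the median was 0.0070. The gene that fell, Slc35f6, belongs to the Slc35f branch, whose members are not established nucleotide sugar carriers. It gave -0.33, -0.47 and -0.31 in Cy5 and -0.06, -0.18 and -0.10 in Cy3, all below 0 without overlap. It fell by 0.24 ± 0.074 (adjusted p = 0.0207) and lost its call without set 1 (-0.27), without set 2 (-0.20) and on the Cy3 arrays alone (-0.11). The UDP-galactose carrier Slc35a2 (0.16 ± 0.083), Slc35a5 (-0.10 ± 0.045) and Slc35f5 (0.08 ± 0.040) did not pass.

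A simplified form of the kappaB motif (GGG, any 3 bases, then TTCC) was searched on both strands of the same promoters. Beside the usual kappaB consensus, it frees some bases and fixes TT where the consensus allows C or T. The match in Slc39a9 does not meet that consensus, and a promoter without a match may still hold a consensus site. The letters searched occur in 5.56% of all promoters, or in those of 1704 of 27025 genes. Of the genes that passed, 1 that rose, Slc39a9, and 1 that fell, Slc37a4, hold these letters, and both are printed with the match in capitals. Whether the letters bear on the direction was not tested. The match of Slc37a4 lies in 1 of its 3 annotated promoters, at offset -192 from that start, and that of Slc39a9 lies at offset -39 on the other strand. The letters TGANNNNGC and TGCNCNC are likewise looser than the usual antioxidant response element and metal response element cores, so a match need not meet either core. These letters occur in 41.3% and 51% of all promoters. Counted by gene, they were in the promoters of 12174 and 14492 of 27025 genes, and of 62 and 72 of 115 tested Slc genes with a promoter. Among genes that passed, they were in the promoters of 6 and 5 of the 9 that rose and of 6 and 5 of the 8 that fell. In Slc7a11 1 match of TGANNNNGC overlaps 1 of TGATGNAA.
Slc37a4, chr9:44396696-44396995, plus strand: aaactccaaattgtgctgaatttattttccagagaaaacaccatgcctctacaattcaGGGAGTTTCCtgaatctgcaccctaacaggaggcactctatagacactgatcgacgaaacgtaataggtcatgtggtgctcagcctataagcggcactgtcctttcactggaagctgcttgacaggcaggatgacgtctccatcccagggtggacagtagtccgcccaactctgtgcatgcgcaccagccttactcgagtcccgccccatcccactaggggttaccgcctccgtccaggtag
Slc39a9, chr12:80643965-80644264, plus strand: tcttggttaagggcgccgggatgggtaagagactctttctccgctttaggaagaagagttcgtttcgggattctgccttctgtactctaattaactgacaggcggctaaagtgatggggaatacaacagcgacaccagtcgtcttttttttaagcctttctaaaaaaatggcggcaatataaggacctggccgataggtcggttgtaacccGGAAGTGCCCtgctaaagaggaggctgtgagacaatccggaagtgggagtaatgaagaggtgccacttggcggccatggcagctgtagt

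Members with missing ratios were described from the arrays that measured them. Slc6a6, the taurine transporter, had a ratio on 1 array only, the Cy5 array of set 1, at -2.15. Without a Cy3 array, treatment and dye cannot be told apart for Slc6a6. Slc47a1, a multidrug and toxin extrusion carrier named after its values were seen, had ratios in sets 2 and 3, at 0.48 and 0.50 in Cy5 and 0.93 and 0.69 in Cy3, all above 0. Of the 23 incomplete members that could be fitted, Slc47a1 was the one that passed (0.65 ± 0.078 over 2 sets, limma, adjusted p = 0.00252). The other incomplete members averaged between -0.18 and 0.28 over the ratios they had. Large ratios on incomplete probes turned sign with the dye where both orientations measured them: besides that of Slc7a1, a probe of Slc1a3, a glutamate transporter, read -1.62 in Cy5 and 2.10 and 1.67 in Cy3, and a probe of the chloride exchanger Slc26a3 read -2.36 in Cy5 and 2.41 and 1.84 in Cy3.

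A fit of the unturned ratios, which asks whether the orientations differ, called 0 of the 152 (limma, adjusted p under 0.05), against 0.06% of all genes, while 41 members had an unadjusted p under 0.05, against 27.8% of all genes, so the members were near the background. With arrays as separate samples 3 members were called for the dye, Slc6a18, Slc4a3 and Slc34a1, against 3.32% of all genes. In 16 of the 152 all Cy5 arrays lay on one side of 0 and all Cy3 arrays on the other, against 13.7% of all genes, and none of the 16 passed the treatment test.

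**Figure D5:**
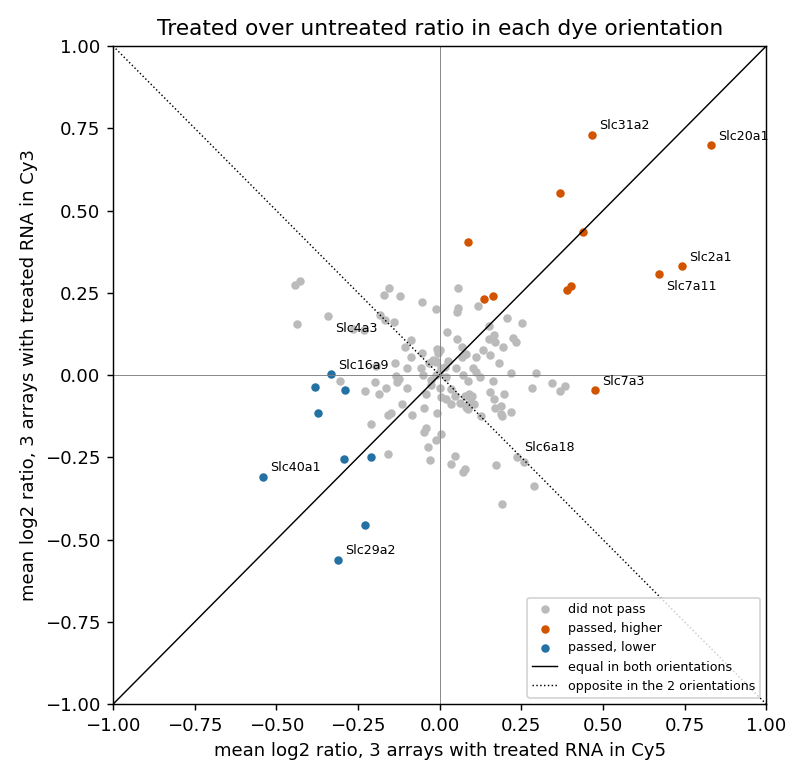
Mean log2 ratio of treated over untreated RNA over the 3 Cy5 arrays (horizontal axis) against that over the 3 Cy3 arrays (vertical axis), 1 point for each of the 152 tested Slc genes. Slc20a1 lies near the solid line of equality (0.83 and 0.70), and Slc4a3 and Slc6a18, which did not pass, lie towards the dotted line of opposite values.

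Genes named as ABC proteins or as sodium, calcium and proton pumps were set beside the solute carriers. Most act in transport driven by ATP. The name rule also takes in Abce1, Abcf1 and Abcf2, which are not membrane transporters and did not pass. Of 46 tested genes, 1 rose and 2 fell, with a median of -0.012. These shares were 2.17% and 4.35%, against 6.96% and 6.21% of all genes. Abcb9, the lysosomal peptide transporter gene, gave 0.55, 0.56 and 0.57 in Cy5 and 0.53, 0.83 and 0.63 in Cy3 and rose by 0.61 ± 0.078 (limma, adjusted p = 0.000616). The cholesterol exporter gene Abcg1 fell by 0.36 ± 0.11, and the lysosomal Abcd4 fell by 0.29 ± 0.087. Abcg1 did not pass on the Cy5 arrays alone (-0.25), nor did Abcd4 without set 1 (-0.30). Atp6v0a1, a subunit of the lysosomal proton pump, averaged 0.17 ± 0.22 and did not pass.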

How the data were processed

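The deposited values are ratios of the 2 channels of each array, and they are log2 values by a test on the deposited numbers: between 99.73% and 99.89% of the non-zero values are 6-digit log10 numbers divided by log10 of 2 (relative tolerance 1e-13). Scanner, background correction and normalization are not given in the sources used here. Ratios of the 3 arrays whose treated RNA carried Cy3 were turned by the factor -1, and exact zeros became missing. Of 16281 probes, 13738 have 1 gene symbol in the platform annotation, 52 several and 2491 none. Of 2 probes with several symbols that include an Slc symbol, neither was used. RefSeq gene IDs matched 13694 probes and changed 0 symbols. Complete probes were averaged by symbol, the arrays of a set were averaged, and limma 3.58.1 (two-sided moderated test, Benjamini-Hochberg) compared the 3 averages with 0 in R 4.3.3, with 2 residual and 4.08 prior degrees of freedom. The fit was tested on simulated data. Precision is limited by how few arrays there are.

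The members, lists, families and the rule for named genes were chosen with earlier results of these data known. The rule names every member that passed (up to 40), 33 genes fixed by name (25 tested, 1 incomplete, 7 without a probe used here), up to 3 members per substrate group that did not pass and 4 genes per outside list. Alternatives treated arrays as separate samples, left out a set, used 1 orientation, kept zeros, added incomplete probes, centred arrays, applied quantile normalization or tested probes singly.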

Additional observations from a re-analysis of the deposited data

Results flagged for a closer look

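Of the named or dye-called members, 7 had all arrays of one dye orientation on one side of 0 and all arrays of the other orientation on the opposite side. The difference of the orientation means (treated RNA in Cy5 minus treated RNA in Cy3) was -0.335 for the lactate carrier Slc16a1, -0.415 and -0.278 for the zinc exporters Slc30a1 and Slc30a4, -0.406 for the phosphate carrier Slc34a1, -0.369 for the binding protein Slc4a1ap, -0.523 for the anion exchanger Slc4a3 and 0.486 for Slc6a18. In the limma fit of the difference on set averages none of the 7 passed (adjusted p from 0.114 to 0.122), and with arrays as separate samples Slc34a1, Slc4a3 and Slc6a18 passed (adjusted p = 0.0445 each). None of the 7 was called for treatment. Groups of 3 arrays were too small for a check of single outlying arrays.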

How the results depend on the processing

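Set numbers did not pair the arrays: with orientation means removed, arrays of one number correlated at -0.0077, -0.281 and -0.0943. Where the correlation is negative, set averages can understate the scatter of the arrays. With no replicate block, that is arrays as separate samples with dye as a term, 18 members rose and 8 fell, 10 and 7 of them among the 12 and 9, and 3 had a dye effect in place of 0. With 1 set left out, between 7 and 8 rose and between 3 and 5 fell. With treated RNA in Cy3 alone 6 rose and 3 fell, and with zeros kept 5 rose and 4 fell. With incomplete probes included 12 rose and 5 fell. Apart from the fit with no replicate block, these counts were not set against the share of all genes called in the same setting. The other settings kept both counts within 1.5 times. Of single genes, Slc16a9 (0.0026) and Slc7a3 (-0.0455) turned sign with treated RNA in Cy3 alone and Slc7a1 (-0.18) with zeros kept as ratios. Of the 21 genes called, 6 kept their call in every alternative. For the losses elsewhere, fewer arrays are part of the construction of the fits on 1 orientation or 2 sets, and otherwise the cause was not tested.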
